A study of Mus musculus with 18 samples.

Results

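The unfolded protein response genes described here are 10 genes: the stress sensors Ern1, Eif2ak3 and Atf6, the transcription factors Xbp1, Atf4 and Ddit3, the pseudokinase Trib3, and the endoplasmic reticulum (ER) proteins Hspa5, Herpud1 and Dnajb9. They were found among 20672 genes by their symbol in the array annotation, which gives them 28 of 38089 features with 1 symbol. Each gene is represented by the probe set selected on its measured brightness, the highest mean log2 signal over all 18 arrays, and the genes themselves were named with earlier results of these data known. All 10 have a mean log2 signal above 6.71, the median over all genes, which follows in part from that choice of probe set.

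Expression was measured on 1-colour Affymetrix mouse arrays, 1 array per mouse, in 3 groups. The IDH2/NHD13 group held 9 leukemic spleens of mice with the genotype Idh2R140Q/NHD13, which joins the R140Q form of the mitochondrial isocitrate dehydrogenase IDH2 to the NUP98-HOXD13 fusion transgene and whose T-cell acute lymphoblastic leukemia (T-ALL) is labelled DN1/DN2, after the earliest thymocyte stages. The SCL/LMO1 group held 6 leukemic thymi of mice that express SCL and LMO1 and develop a cortical T-ALL outside those stages. The WT group held thymus of 3 wild-type mice. Age, the promoters of the transgenes and any treatment are not given in the sources used here. The arrays of mice 546 and 550 of the IDH2/NHD13 group had a root mean square difference of 0.213 on the log2 scale, less than any of the other 152 pairs of arrays (0.450 or more), so they were averaged and 17 samples, counted as independent, remained. The next pair, at 0.450, was SCL/LMO1 mice 7114/3 and 7114/1, whose labels share a number. They were kept as separate samples, with their average as an alternative, and how they are related is not given. Whether mice of a group shared a litter or a day of processing is also not given, so p-values measure the spread between these samples.

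Proteins that enter the ER fold there with the help of chaperones, and unfolded protein builds up when the load exceeds that capacity. IRE1, encoded by Ern1, then splices Xbp1 mRNA, PERK, encoded by Eif2ak3, phosphorylates eIF2alpha and so lowers protein synthesis while translation of ATF4 goes up, and ATF6 is cut in the Golgi to release a transcription factor. Plasma cells and other secretory cells depend on the IRE1 branch, and the eIF2alpha branch is shared with kinases that sense heme shortage, amino acid shortage and double-stranded RNA, which together form the integrated stress response. An expression array reads total mRNA, so it shows neither splicing of Xbp1 nor phosphorylation of PERK or eIF2alpha.

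The tissues differ in their cells as well as in genotype. IDH2/NHD13 leukemias were taken from spleen and both other groups from thymus, so genotype, leukemia type and tissue cannot be told apart in either comparison with the IDH2/NHD13 group. All 12 erythroid marker genes were higher in IDH2/NHD13 spleens in both comparisons, with list means of 9.18 to 12.57 log2 units in IDH2/NHD13 samples, 5.19 to 5.53 in SCL/LMO1 samples and 5.30 to 5.69 in WT samples. T-lineage markers were lower in IDH2/NHD13 spleens for 13 of 14 genes against SCL/LMO1 thymi (list means 6.38 to 9.73 against 11.72 to 12.04) and for 5 of 14 genes against WT thymi (10.98 to 11.82), and the early progenitor list had 8 of 11 genes higher in IDH2/NHD13 than in SCL/LMO1 samples. Markers of double-positive thymocytes were high in both thymic groups, at 9.79 to 11.41 in SCL/LMO1 and 11.24 to 11.91 in WT samples, against 5.74 to 8.21 in IDH2/NHD13 samples. Neutrophil granule genes were higher in IDH2/NHD13 spleens for 6 of 10 genes against SCL/LMO1 and 8 of 10 against WT thymi. For macrophage genes these counts were 6 and 2 of 11, and for megakaryocyte and platelet genes 6 and 5 of 8, with 0 called lower in any of these lists. Plasma cell markers stood at 6.47 to 7.25 in IDH2/NHD13, 7.24 to 8.85 in SCL/LMO1 and 8.36 to 8.61 in WT samples. Mouse 555 had a kidney tubule list mean of 10.12, mouse 6889/1 a skeletal muscle list mean of 9.39 and mouse 627 an adipocyte list mean of 13.55, the highest in their groups. Mouse 555 also had an adipocyte list mean of 9.87 (median of its group 6.04). Among SCL/LMO1 samples mouse 3767 had a thymic epithelium list mean of 8.70 (median 5.58) and mouse 6883/2 a skeletal muscle list mean of 7.08 (median 5.62). In these bulk samples, fewer cells of a type and less RNA per cell cannot be told apart, and the part that cell composition has in the differences below was not tested.

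Between the leukemias the unfolded protein response genes differed mostly in 1 direction. In limma's fit over all genes, called at a Benjamini-Hochberg adjusted p under 0.05, 6 of the 10 genes were higher in IDH2/NHD13 than in SCL/LMO1 leukemias, namely Trib3, Atf6, Ddit3, Herpud1, Ern1 and Hspa5, and Eif2ak3 was lower. Of all genes 11.7% were called higher and 12.0% lower in that comparison. The median log2 fold change was 0.71 over the 10 genes and 0.03 over all genes. The values of IDH2/NHD13 and SCL/LMO1 samples did not overlap for 4 of the 10 genes, against 8.69% of all genes.

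Against WT thymus fewer genes passed the test. In IDH2/NHD13 leukemias Trib3 and Atf4 were higher and Eif2ak3 was lower, 3 of 10 genes, where 9.08% of all genes were called higher and 8.31% lower, and the groups did not overlap for 2 of the 10 genes, Trib3 and Eif2ak3, against 12.1% of all genes. In SCL/LMO1 leukemias 0 of the 10 genes were called higher by limma (0 also at an unadjusted p under 0.05), against 5.04% of all genes, and Xbp1 and Dnajb9 were lower, against 6.52% of all genes. There the groups did not overlap for 3 of the 10 genes, Xbp1, Dnajb9 and, with SCL/LMO1 above WT, Atf4, against 20.9% of all genes. The median log2 fold change over the 10 genes was 0.54 for IDH2/NHD13 against WT and -0.33 for SCL/LMO1 against WT, beside 0.10 and 0.08 over all genes. Centring each array on its median put the median of all genes at -0.07 for IDH2/NHD13 against SCL/LMO1, 0.23 for IDH2/NHD13 against WT and 0.30 for SCL/LMO1 against WT, and higher calls then made up 37.5%, 58.5% and 68.5% of all calls, beside 49.2%, 52.2% and 43.6% as deposited. The 3 comparisons share their groups, so their values are not independent of each other. With 3 WT mice, leaving out 1 of them changed several calls against WT, which are given with each gene below.

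**Figure D1:**
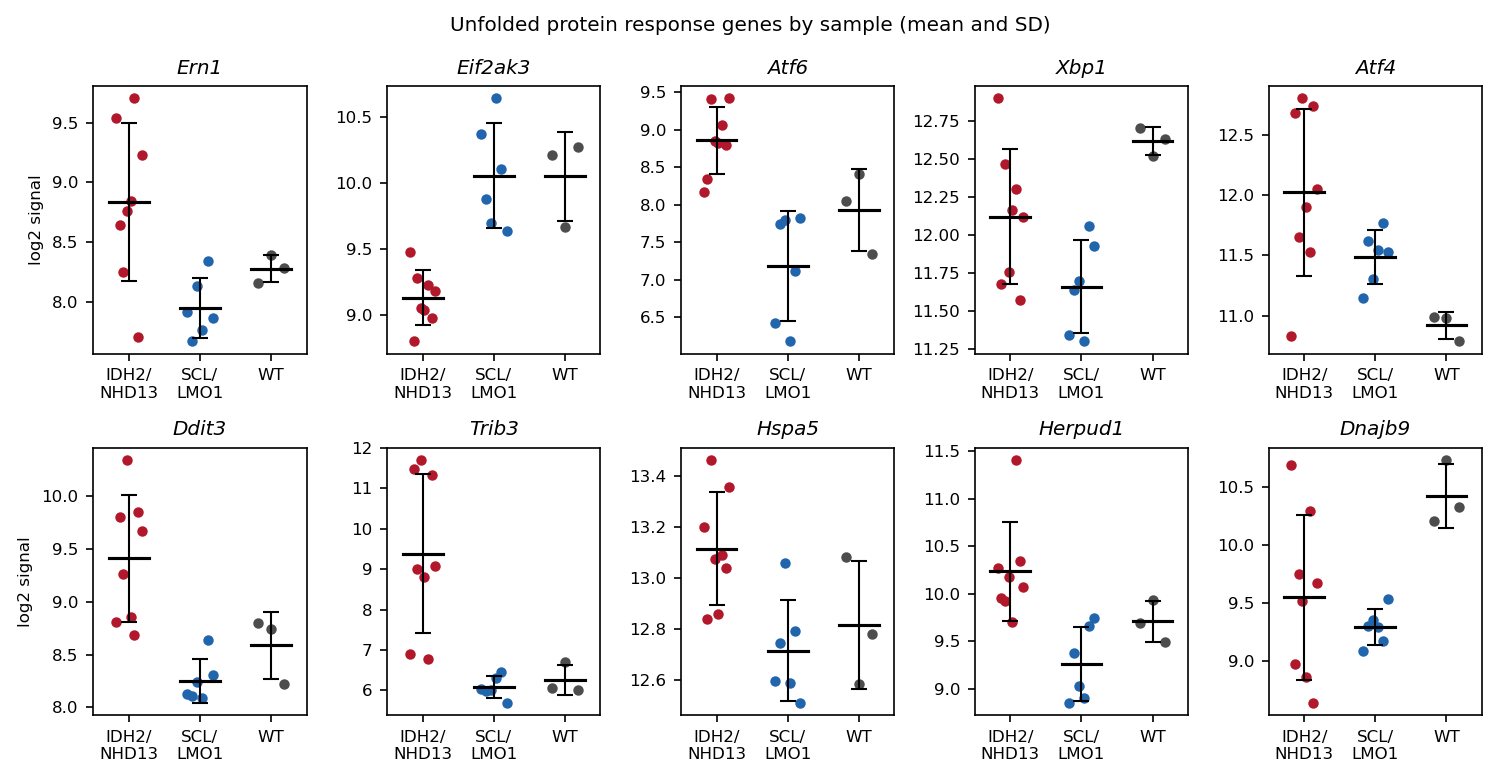
Log2 signal (y axis) of each unfolded protein response gene in every independent sample of IDH2/NHD13 spleens (left, 8), SCL/LMO1 thymi (middle, 6) and WT thymi (right, 3), with the mean as a bar and the SD as a whisker; each panel has its own y scale. All IDH2/NHD13 samples lie above all SCL/LMO1 samples for Atf6, Ddit3 and Trib3 and below them for Eif2ak3, and Trib3 spreads over 4.94 log2 units within the IDH2/NHD13 group.

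Among the sensors, Atf6, the Golgi-processed transcription factor, had the largest fold change between the leukemias. The log2 signal of Atf6 (probe set 1435444_at, chromosome 1) was lowest at 8.16, with a median of 8.84 and a highest value of 9.42, in IDH2/NHD13 spleens, against 6.18, 7.43 and 7.82 in SCL/LMO1 thymi and 8.05, 8.41 and 7.34 in WT mice 623, 627 and 631. Every IDH2/NHD13 sample was above every SCL/LMO1 sample, and within SCL/LMO1 thymi mice 3767 and 6466/4, at 6.42 and 6.18, lay below the other 4. The log2 fold change of IDH2/NHD13 over SCL/LMO1 was 1.68 ± 0.30 (SE, n = 8 and 6), or 3.20-fold (limma, adjusted p = 0.00071). Both other probe sets of Atf6 were higher as well, by 0.87 and 1.27 log2 units, but with overlapping groups. The first of these was dim, with a mean of 5.90 over the arrays. Against WT thymus the differences of 0.93 for IDH2/NHD13 (95% interval 0.13 to 1.72, limma adjusted p = 0.0938) and -0.75 for SCL/LMO1 (-1.58 to 0.07, limma adjusted p = 0.225) did not pass the test.

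Eif2ak3, the gene of the eIF2alpha kinase PERK, was the member that was lower in IDH2/NHD13 leukemias. Its log2 signal (1449278_at, chromosome 6) had a lowest value of 8.80, a median of 9.12 and a highest value of 9.48 in IDH2/NHD13 spleens, against 9.64, 9.99 and 10.65 in SCL/LMO1 thymi and 10.22, 9.67 and 10.28 in WT mice 623, 627 and 631. The IDH2/NHD13 samples lay below all 9 thymi. The log2 fold change was -0.93 ± 0.16 against SCL/LMO1 (SE, n = 8 and 6, 1.90-fold lower, limma adjusted p = 0.000619) and -0.92 ± 0.20 against WT (SE, n = 8 and 3, 1.89-fold lower, limma adjusted p = 0.00632). Without WT mouse 623 the limma adjusted p against WT was 0.0501. The SCL/LMO1 and WT means differed by 0.01 (95% interval -0.44 to 0.45). Both other probe sets of Eif2ak3 were dim, with means of 4.00 and 4.96 over the arrays, and differed between the leukemias by -0.16 and 0.08, so the lower level rests on 1 probe set. The mean of all probe sets gave -0.34 and kept its call, but it includes that bright set and is no separate check.

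Ern1, which encodes the kinase and ribonuclease IRE1, had log2 signals (1437119_at, chromosome 11) of 7.71, 8.80 and 9.70 as the lowest, median and highest values in IDH2/NHD13 spleens, against 7.67, 7.89 and 8.35 in SCL/LMO1 thymi and 8.16, 8.39 and 8.29 in WT mice 623, 627 and 631. Mouse 559 was low within the IDH2/NHD13 group, and the groups overlap. Ern1 was higher in IDH2/NHD13 than in SCL/LMO1 leukemias by 0.88 ± 0.25 log2 units (SE, n = 8 and 6, limma adjusted p = 0.0188). The other 4 probe sets of Ern1 had means below the median of all genes and differed by -0.04 to 0.81. Neither difference from WT passed the test, at 0.55 for IDH2/NHD13 and -0.33 for SCL/LMO1 (limma adjusted p = 0.231 and 0.561), although with the mean of all probe sets the first did (0.45, 0.0146).

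**Figure D2:**
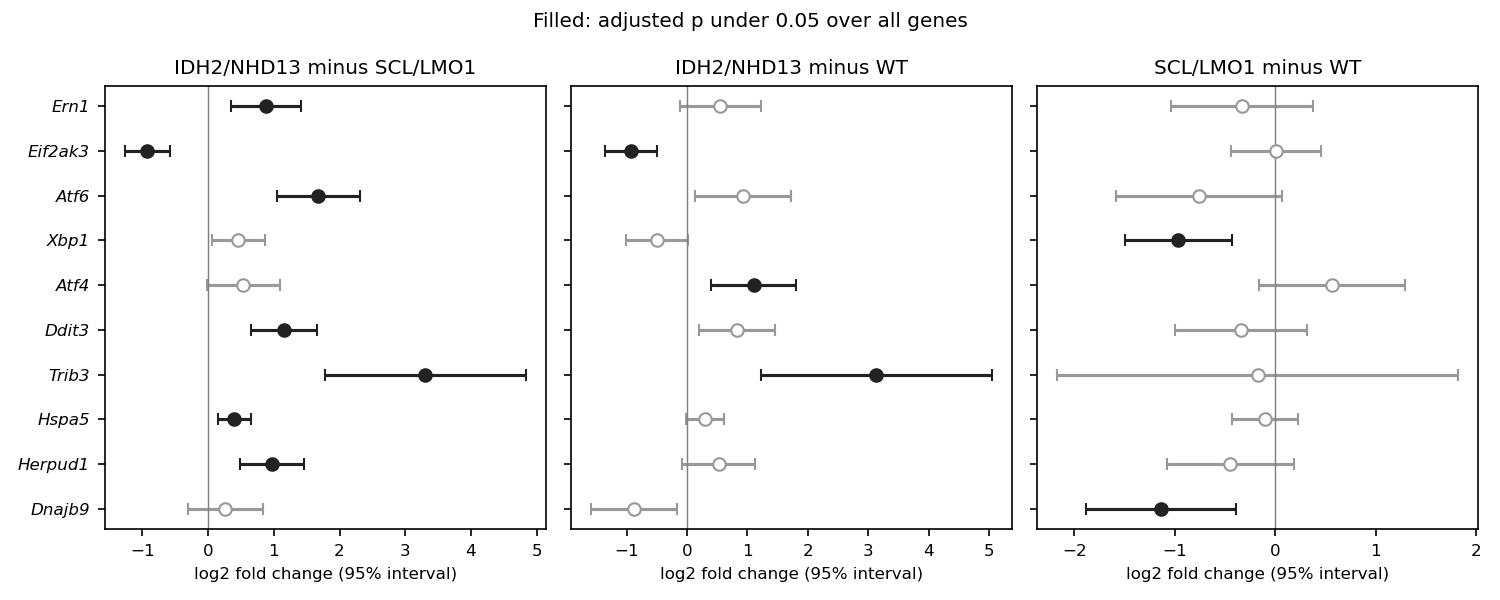
Log2 fold change (x axis, with 95% intervals from limma) of each unfolded protein response gene (y axis) for IDH2/NHD13 minus SCL/LMO1, IDH2/NHD13 minus WT and SCL/LMO1 minus WT; filled points have an adjusted p under 0.05 over all genes. In the first panel 9 of 10 points are above 0 and 7 are filled, and Trib3 has both the highest point and the widest interval, 1.79 to 4.83.

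Among the transcription factors, Xbp1 was lowest in SCL/LMO1 leukemias. XBP1 is made from the mRNA that IRE1 splices, and it drives chaperone and ER-associated degradation genes. Its log2 signal (1437223_s_at, chromosome 11) was 11.57, 12.14 and 12.90 as the lowest, median and highest values in IDH2/NHD13 spleens, 11.30, 11.67 and 12.06 in SCL/LMO1 thymi and 12.71, 12.53 and 12.63 in WT mice 623, 627 and 631. All SCL/LMO1 samples lay below all WT samples. The log2 fold change of SCL/LMO1 against WT was -0.96 ± 0.25 (SE, n = 6 and 3, 1.95-fold lower, limma adjusted p = 0.0215), and all 4 probe sets of Xbp1 were lower in every SCL/LMO1 sample than in any WT sample, with differences of -1.11 to -0.93. The call was lost without WT mouse 623 or 627 (limma adjusted p = 0.0868 and 0.0782) and without mice 555, 627 and 6889/1 together (0.0973). Of the plasma cell, thymic epithelium and adipocyte markers, 1 of 7, 7 of 10 and 7 of 8 genes were also lower in SCL/LMO1 than in WT thymi (list means 7.24 to 8.85, 5.18 to 8.70 and 7.28 to 9.13 in SCL/LMO1, against 8.36 to 8.61, 8.85 to 9.71 and 10.25 to 13.55 in WT), and their part in the Xbp1 difference was not tested. For IDH2/NHD13 spleens the log2 fold change was 0.46 against SCL/LMO1 (limma adjusted p = 0.0943) and -0.50 against WT (limma adjusted p = 0.153), neither past the test. The first of these passed the test without mouse 559 (limma adjusted p = 0.0495) and with the mean of all probe sets (0.0428), and the second without mouse 524 (0.0438).

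Atf4 encodes the factor whose translation goes up when eIF2alpha is phosphorylated. Its log2 signal (1448135_at, chromosome 15) had a lowest value of 10.83, a median of 11.97 and a highest value of 12.80 in IDH2/NHD13 spleens, against 11.15, 11.54 and 11.77 in SCL/LMO1 thymi and 10.99, 10.99 and 10.79 in WT mice 623, 627 and 631. Mouse 524 alone of the IDH2/NHD13 group fell among the WT values. Atf4 was higher in IDH2/NHD13 than in WT samples by 1.10 ± 0.33 log2 units (SE, n = 8 and 3, 2.15-fold, limma adjusted p = 0.0312), a call that was lost without WT mouse 623, 627 or 631 (limma adjusted p = 0.1, 0.0856 and 0.0848) without mice 555, 627 and 6889/1 together (0.0672) and with only those 2 groups in the fit (0.0967). The difference of 0.54 between the leukemias did not pass the test (95% interval -0.02 to 1.09, limma adjusted p = 0.157), although it did without mouse 524 (0.71, limma adjusted p = 0.0217). With the mean of all probe sets that difference was 0.20 (limma adjusted p = 0.474), since the other bright probe set of Atf4 differed by 0.14 and a dim one by -0.07. All SCL/LMO1 samples lay above all WT samples, by 0.56 in the mean, which did not pass the test in the fit over 3 groups (limma adjusted p = 0.308) and did with those 2 groups alone (0.0259).

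Ddit3 encodes CHOP, a factor downstream of ATF4 that takes part in stress-induced apoptosis. Its log2 signal (1417516_at, chromosome 10) was 8.69, 9.47 and 10.35 as the lowest, median and highest values in IDH2/NHD13 spleens, against 8.09, 8.18 and 8.64 in SCL/LMO1 thymi and 8.80, 8.74 and 8.23 in WT mice 623, 627 and 631. The lowest IDH2/NHD13 sample, mouse 555, lay just above the highest SCL/LMO1 sample, mouse 6883/2. The log2 fold change between the leukemias was 1.16 ± 0.24 (SE, n = 8 and 6, 2.23-fold, limma adjusted p = 0.00206). The second, dimmer probe set of Ddit3 was higher by 0.59 with overlapping groups. Against WT, the difference of 0.82 in IDH2/NHD13 samples did not pass the test (95% interval 0.20 to 1.45, limma adjusted p = 0.065), although it did without mouse 524 (limma adjusted p = 0.0373) or mouse 555 (0.0254), and the difference of -0.34 in SCL/LMO1 samples did not (limma adjusted p = 0.516).

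Trib3, a pseudokinase induced by ATF4 and CHOP that dampens ATF4 activity, had the largest fold change of the 10 genes in both comparisons with the IDH2/NHD13 group. Its log2 signal (1456225_x_at, chromosome 2) was 11.71 in mouse 531, 11.49 in mouse 525, 11.33 in mouse 559, 9.07 in mouse 570, 9.00 in mouse 526, 8.82 in mice 546 and 550, 6.90 in mouse 524 and 6.77 in mouse 555 among IDH2/NHD13 spleens. In SCL/LMO1 thymi the lowest, median and highest values were 5.69, 6.02 and 6.45, and WT mice 623, 627 and 631 had 6.05, 6.69 and 6.01. The IDH2/NHD13 samples thus stood at 3 levels, with the lowest 2 close to the thymic samples and still above all of them. The SD of 1.97 log2 units within the IDH2/NHD13 group was at the 98.9th percentile of all genes, whose median SD there was 0.30.

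The log2 fold change of Trib3 was 3.31 ± 0.72 over SCL/LMO1 (SE, n = 8 and 6, 9.91-fold, limma adjusted p = 0.00326) and 3.13 ± 0.90 over WT (SE, n = 8 and 3, 8.78-fold, limma adjusted p = 0.0261). The letter x in the name of its brightest probe set marks probes that may bind other transcripts, and the other set of Trib3, 1426065_a_at, was higher by 2.38 and 2.47 log2 units, also without overlap. The call against WT was lost without WT mouse 623, 627 or 631 (limma adjusted p = 0.108, 0.0643 and 0.07) and with only those 2 groups in the fit (0.0937). Trib3 in SCL/LMO1 and WT thymi differed by -0.17 (95% interval -2.17 to 1.82), and the sign changed with quantile normalization and with centred array medians.

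Among the ER proteins, Hspa5 encodes BiP, the main ER chaperone, which binds the sensors at rest. Its log2 signal (1416064_a_at, chromosome 2) was 12.84, 13.08 and 13.47 as the lowest, median and highest values in IDH2/NHD13 spleens, against 12.51, 12.67 and 13.06 in SCL/LMO1 thymi and 13.08, 12.59 and 12.78 in WT mice 623, 627 and 631. The groups overlap. The log2 fold change between the leukemias was 0.40 ± 0.12 (SE, n = 8 and 6, 1.32-fold, limma adjusted p = 0.0217). It was 0.31 with centred array medians (limma adjusted p = 0.115), and the call was also lost without SCL/LMO1 mouse 6466/4 or 7114/1 (0.0517 and 0.0554). One other probe set was higher by 0.61 and another differed by -0.02, so the probe sets of Hspa5 disagree. Neither difference from WT passed the test, at 0.30 for IDH2/NHD13 and -0.10 for SCL/LMO1 (limma adjusted p = 0.166 and 0.722), and the second changed sign with centred array medians.

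Herpud1 encodes a membrane protein of ER-associated degradation, the route by which misfolded proteins leave the ER. Its log2 signal (1448185_at, chromosome 8) was 9.71, 10.13 and 11.41 as the lowest, median and highest values in IDH2/NHD13 spleens, against 8.85, 9.21 and 9.74 in SCL/LMO1 thymi and 9.70, 9.93 and 9.50 in WT mice 623, 627 and 631. The highest value belongs to mouse 555, and the other 7 samples reached 10.35 at most. Herpud1 was higher in IDH2/NHD13 than in SCL/LMO1 leukemias by 0.97 ± 0.23 log2 units (SE, n = 8 and 6, 1.96-fold, limma adjusted p = 0.00535), and its second probe set by 0.89. Neither difference from WT passed the test, at 0.53 for IDH2/NHD13 and -0.45 for SCL/LMO1 (limma adjusted p = 0.205 and 0.355).

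Dnajb9, which encodes the BiP co-chaperone ERdj4, is a target of spliced XBP1. Its log2 signal (1417191_at, chromosome 12, its one probe set) was 8.64, 9.60 and 10.70 as the lowest, median and highest values in IDH2/NHD13 spleens, 9.09, 9.30 and 9.54 in SCL/LMO1 thymi and 10.21, 10.74 and 10.33 in WT mice 623, 627 and 631. SCL/LMO1 samples lay below all WT samples, with a log2 fold change of -1.13 ± 0.35 (SE, n = 6 and 3, 2.20-fold lower, limma adjusted p = 0.0481). That call stood at the edge of the threshold and was lost without any 1 of the SCL/LMO1 or WT mice and without IDH2/NHD13 mouse 526, 531 or 570 (limma adjusted p up to 0.232, without WT mouse 627), and also with centred array medians (0.0572) or with mice 7114/1 and 7114/3 averaged (0.0657). The IDH2/NHD13 samples spread across both other groups. Their log2 fold change was -0.87 against WT (95% interval -1.59 to -0.16, limma adjusted p = 0.0825, and 0.0176 without mouse 524 or 0.0383 without mouse 555) and 0.26 against SCL/LMO1 (limma adjusted p = 0.527).

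The promoters of 9 of the 10 genes, all but Atf6, were matched in a RefSeq table for GRCm38.p6 that holds 250 bases before to 50 after each start. They were searched on both strands for the ER stress response element (CCAAT, any 9 bases, CCACG), which ATF6 and XBP1 bind, the core of the unfolded protein response element (TGACGTGG) and the amino acid response element (TGATGNAAN), which ATF4 binds with partners. Of 32851 promoters of the same length 0.119% hold the first, 0.676% the second and 3.95% the third. The matches lie in Hspa5 (chr2:34771840-34772139, plus strand), which has the ER stress response element at positions -65 to -47 from the start, in Herpud1 (chr8:94386179-94386478, plus strand), which has the amino acid response element on the other strand at positions -113 to -105, and in Trib3 (chr2:152344011-152344310, minus strand), which has it on the other strand at positions 13 to 21 after the start. The core TGACGTGG was in 0 of the 9 windows. The 3 windows are shown because they set the chaperone gene with the smallest called difference beside the gene with the largest, with the matched letters in capitals.
Hspa5: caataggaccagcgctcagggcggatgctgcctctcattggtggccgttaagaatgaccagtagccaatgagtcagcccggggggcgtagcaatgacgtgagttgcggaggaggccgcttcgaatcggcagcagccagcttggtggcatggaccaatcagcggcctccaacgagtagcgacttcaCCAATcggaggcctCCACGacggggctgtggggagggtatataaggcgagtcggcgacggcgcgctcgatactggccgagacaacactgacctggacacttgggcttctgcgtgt
Herpud1: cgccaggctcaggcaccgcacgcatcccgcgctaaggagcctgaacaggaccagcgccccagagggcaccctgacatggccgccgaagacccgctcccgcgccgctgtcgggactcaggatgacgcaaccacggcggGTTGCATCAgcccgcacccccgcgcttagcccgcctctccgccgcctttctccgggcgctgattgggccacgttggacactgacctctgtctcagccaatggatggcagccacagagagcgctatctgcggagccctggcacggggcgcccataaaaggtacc
Trib3: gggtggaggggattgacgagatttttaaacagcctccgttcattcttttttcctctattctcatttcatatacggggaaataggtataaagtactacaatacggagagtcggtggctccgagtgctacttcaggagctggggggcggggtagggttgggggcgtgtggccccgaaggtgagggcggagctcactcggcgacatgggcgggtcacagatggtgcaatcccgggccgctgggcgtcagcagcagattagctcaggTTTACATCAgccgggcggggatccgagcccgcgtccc
A match is a description of these letters and not a site shown to be used, and the other 6 windows hold none of the 3 motifs as spelled here. Each element was searched in that 1 spelling only. Any window may therefore hold an ER stress response element spelled otherwise, which was not looked for. The Herpud1 window holds ATTGG, the reverse complement of CCAAT, 1 base ahead of CCACG, an arrangement that the search did not cover.

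Within groups, the 10 genes did not vary as 1 set. The deviations of each gene from its group means were correlated over the 17 samples, which share arrays and tissue composition, as a description without a test. Of 45 pairs 6 had a Pearson r above 0.5 and 7 below -0.5, and the median was 0.01. Atf4, Ddit3 and Trib3 varied together, with r = 0.91 for Atf4 and Trib3, 0.86 for Ddit3 and Trib3 and 0.83 for Atf4 and Ddit3. Xbp1, Ern1 and Dnajb9 also did, with r = 0.70 for Ern1 and Dnajb9, 0.70 for Xbp1 and Dnajb9 and 0.57 for Xbp1 and Ern1. Between these trios r was negative, at -0.76 for Xbp1 and Trib3, -0.73 for Atf4 and Xbp1 and -0.73 for Atf4 and Dnajb9.

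The opposition was then read in IDH2/NHD13 spleens alone, which are 8 of those 17 samples and so no separate evidence. They had the widest spread of Atf4, with an SD of 0.69 against 0.22 in SCL/LMO1 and 0.11 in WT samples. No r was computed within SCL/LMO1 thymi, so the opposition is not shown there. In that group mouse 6883/2 had both the highest Atf4 (11.77) and the highest Xbp1 (12.06). Mouse 3767 had the lowest Atf4 (11.15) and an Xbp1 of 11.34, close to the lowest, 11.30 in mouse 6466/4. At these ends the genes ran together, so the negative r over 17 samples should not be read as holding in each group. Over the 8 samples Atf4 and Xbp1 had r = -0.98 and a Spearman rho of -0.90, and r = -0.97 over 6 samples without both samples farthest from the median of Atf4. Atf4 and Trib3 had r = 0.94 and rho = 0.93, and r = 0.94 without those samples. Xbp1 and Dnajb9 had r = 0.82 and rho = 0.83, and r = 0.53 without both samples farthest from the median of Xbp1. Xbp1 and Ern1 had r = 0.60 and rho = 0.57, and r = 0.11 without those samples, so that link rests on them. Mice 525, 531 and 559 had the highest Atf4 (12.68, 12.80 and 12.74) and the lowest Xbp1 (11.68, 11.75 and 11.57), and mouse 524 had the lowest Atf4 (10.83), the highest Xbp1 (12.90) and the highest Dnajb9 (10.70). In the same spleens Eif2ak3 went with Xbp1 (r = 0.92) and against Atf4 (r = -0.88), while over all 17 samples those values were 0.15 and -0.45. Over the 17 samples Atf6 and Eif2ak3 had r = -0.66, with SCL/LMO1 mice 3767 and 6466/4 lowest in Atf6 and highest in Eif2ak3 (10.38 and 10.65), while within IDH2/NHD13 spleens r was 0.11. Atf6, Hspa5 and Herpud1 belonged to neither trio, with r between -0.36 and 0.46 to each gene of them over the 17 samples.

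**Figure D3:**
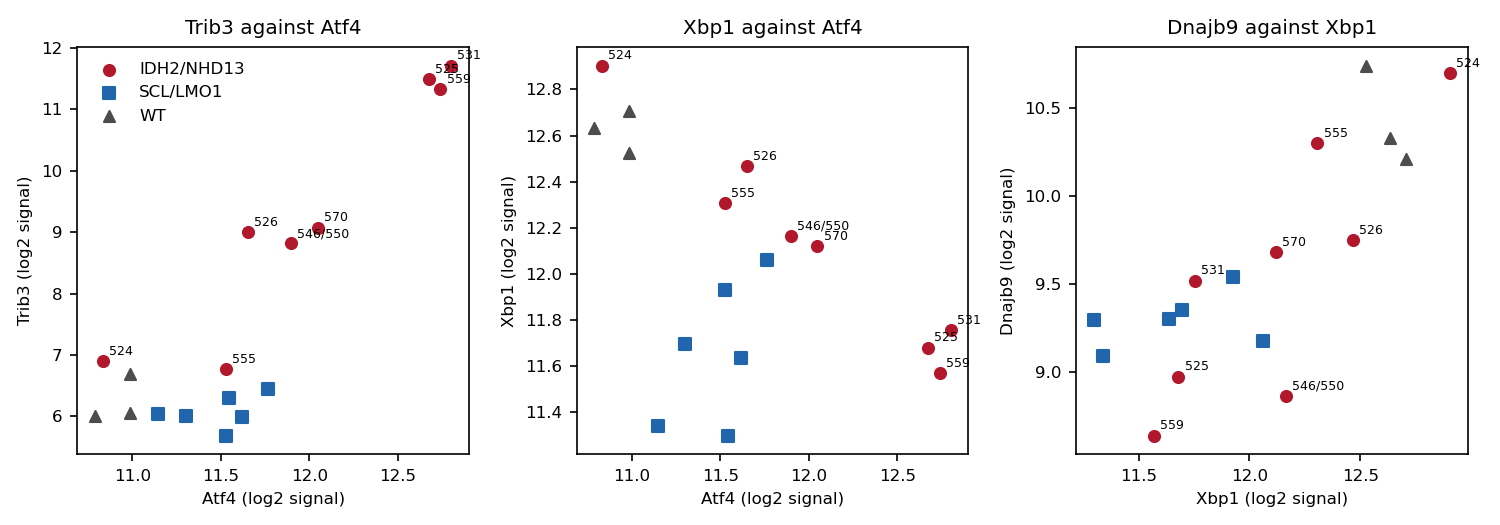
Log2 signals of Trib3 against Atf4, Xbp1 against Atf4 and Dnajb9 against Xbp1 in each independent sample, IDH2/NHD13 as circles with mouse numbers, SCL/LMO1 as squares and WT as triangles. In IDH2/NHD13 spleens Trib3 goes up and Xbp1 goes down along Atf4, with mouse 524 at 1 end and mice 525, 531 and 559 at the other.

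**Figure D4:**
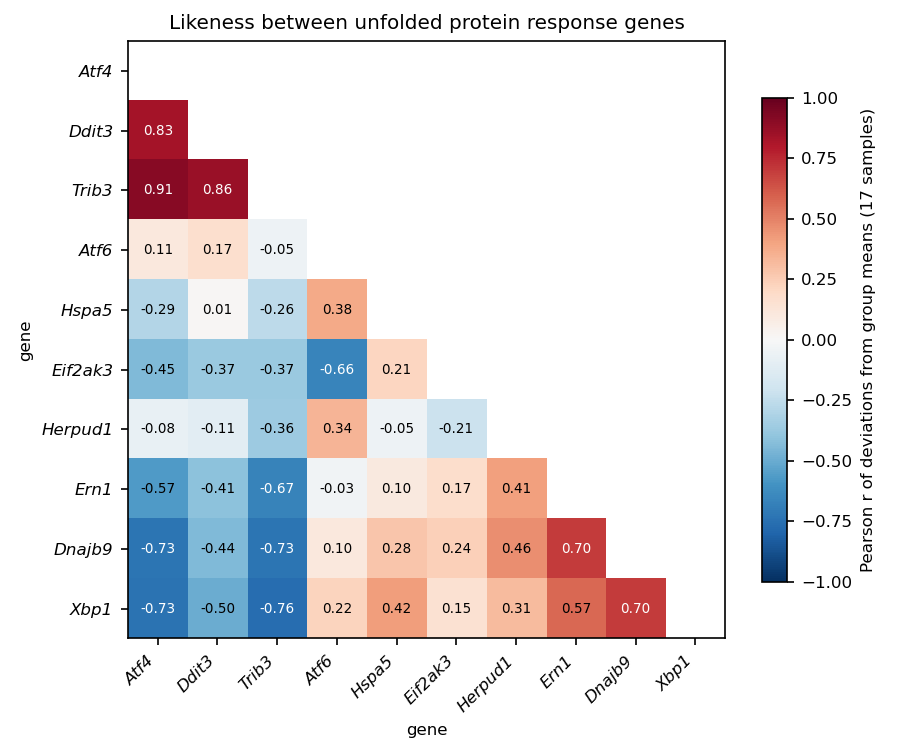
Pearson r between the deviations from group means of each pair of unfolded protein response genes over 17 samples, red for positive and blue for negative. Atf4, Ddit3 and Trib3 form a block with r of 0.83 or more at the top left, Ern1, Dnajb9 and Xbp1 a second one with r of 0.57 or more at the bottom right, and the cells between the blocks are negative.

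The genes outside the set with the most similar deviations, among genes brighter than the median, differ between the trios. For Trib3 they were Lars (r = 0.97), Nars (0.96) and Mrs2 (0.95), and for Atf4 Aars (0.93), Tango2 (0.93) and Nars (0.92). Lars, Nars and Aars encode cytosolic tRNA synthetases, and Nars and Aars are on the list of ATF4 targets used below. Ddit3 was closest to Map1lc3b (0.92), which encodes the autophagy protein LC3B, Htatip2 (0.89) and Brpf3 (0.89). Xbp1 was closest to Pecam1 (0.94), the adhesion molecule CD31, and Manba (0.92), a lysosomal mannosidase, and Dnajb9 to Tbc1d32 (0.90), Ctso (0.89) and Cdip1 (0.87). The nearest genes of the remaining members were Glmp for Ern1 (0.84), Srp14 for Eif2ak3 (0.83), Ifi204 for Atf6 (0.80), Igfbp3 for Herpud1 (0.90) and, for Hspa5, the interferon-induced GTPase genes Igtp (0.85) and Iigp1 (0.84). The value for Herpud1 includes mouse 555, whose level of 11.41 stood far above the other IDH2/NHD13 samples, and r without that mouse was not computed.

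Erythroid marker levels varied between IDH2/NHD13 spleens, and their ranks, though not their values, passed a test with the Atf4 trio. The erythroid list mean was 12.57 in mouse 531, 12.49 in mouse 570, 11.83 in mouse 559, 11.76 in mouse 525, 11.74 in mice 546 and 550, 11.07 in mouse 526, 10.14 in mouse 524 and 9.18 in mouse 555. Over the 8 samples its Spearman rho was 0.90 with Atf4 (exact permutation p = 0.00456, adjusted p = 0.0456 over 20 relations), 0.90 with Ddit3 (exact permutation p = 0.00456, adjusted p = 0.0456) and 0.88 with Trib3 (exact permutation p = 0.00724, adjusted p = 0.0483). Pearson's r was 0.73, 0.80 and 0.79 (exact permutation p = 0.0385, 0.0137 and 0.0135), and none of the 20 passed the adjustment (lowest adjusted p = 0.137). Without mice 555 and 524, the samples farthest from the median of the list, r was 0.51 for Atf4, 0.62 for Ddit3 and 0.33 for Trib3. The relation thus rests in part on those samples, and mouse 555 is the one with list means of 10.12 for kidney tubule and 9.87 for adipocytes. Because the genes of this trio vary together, their results are not separate relations. With the erythroid list Xbp1 had r = -0.63 and rho = -0.74 (exact permutation p = 0.0941 and 0.0458, adjusted p = 0.314 and 0.229). With the neutrophil granule list, whose means ran from 6.46 to 12.44 in these spleens, 0 of 10 genes passed in either measure (exact permutation tests, lowest unadjusted p = 0.116). The T-lineage list mean was lowest in mice 570, 531 and 525 (between 6.38 and 7.001) and 9.13 to 9.73 in the others. Mice 531 and 525, among those lowest, had the highest Trib3 (11.71 and 11.49). Mice 524 and 555, with the lowest Trib3 (6.90 and 6.77), had T-lineage means of 9.73 and 9.57. Mouse 559 went the other way, with Trib3 at 11.33 and a T-lineage mean of 9.33. The relation of the T-lineage list to Trib3 was not tested.

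The other genes of the pathway were read from 7 lists, called by limma as above, with no test of a list as a set. Of all genes, 11.7% were called higher and 12.0% lower in IDH2/NHD13 than in SCL/LMO1 leukemias. The shares were 9.08% and 8.31% for IDH2/NHD13 against WT, and 5.04% and 6.52% for SCL/LMO1 against WT. At an unadjusted p under 0.05, counts of 0 in 1 direction became 0 to 4 genes in these lists. Of 23 ER chaperones and folding enzymes 12 were higher and 0 lower in IDH2/NHD13 than in SCL/LMO1 leukemias, with a median log2 fold change of 0.41. Calr and Canx, the lectin chaperones calreticulin and calnexin, were higher by 0.69 ± 0.08 and 0.52 ± 0.10 (SE, limma adjusted p = 2.22e-05 and 0.000992), the oxidase gene Ero1a by 0.86 ± 0.17 (0.00154) and Sdf2l1 by 0.98 ± 0.20 (0.00206). Against WT, 4 were higher and 0 lower in IDH2/NHD13 spleens, including Ero1a by 1.31 (limma adjusted p = 0.00073), Calr by 0.63 (0.000734), Canx by 0.47 (0.016) and the disulfide isomerase gene P4hb by 0.56 (0.0352). In SCL/LMO1 thymi 0 were higher and 3 lower than in WT, namely Fkbp2 (-0.68, limma adjusted p = 0.0098), Txndc5 (-0.73, 0.0201) and Hsp90b1, the ER form of HSP90 (-0.50, 0.0349), and all 3 calls were lost with centred array medians.

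Of 32 ATF4 targets of the integrated stress response 14 were higher and 0 lower in IDH2/NHD13 than in SCL/LMO1 leukemias, with a median of 0.64, and 14 were higher and 1 lower than in WT, with a median of 0.86. Against SCL/LMO1 the smallest adjusted p belonged to Cebpb, a transcription factor also active in myeloid cells (2.37 ± 0.31, SE, limma adjusted p = 5.11e-05), the asparaginyl-tRNA synthetase gene Nars (1.27 ± 0.17, 7.08e-05), the amino acid transporter subunit gene Slc3a2 (1.21 ± 0.20, 0.000394) and Sesn2 (1.25 ± 0.22, 0.000637). Against WT they were Nars (1.23, limma adjusted p = 0.00129), Aars (1.56, 0.00285), the glycine transporter gene Slc6a9 (1.87, 0.00418) and the cationic amino acid transporter gene Slc7a1 (1.11, 0.00436), and the lipoprotein receptor gene Vldlr was lower (-2.60, 0.0275). Between SCL/LMO1 and WT 2 were higher and 3 lower. Slc7a1 (0.93, limma adjusted p = 0.0211) and the mitochondrial serine pathway gene Shmt2 (1.43, 0.0338) were higher, and Cebpb (-1.79, 0.00979), Vldlr (-3.11, 0.0193) and Nupr1 (-2.10, 0.0211) were lower. Cebpb, Vldlr and Nupr1 spread widely within WT thymi, with SDs of 1.31, 1.37 and 1.47. Adipocyte list means were also lower in SCL/LMO1 (7.28 to 9.13) than in WT thymi (10.25 to 13.55), and their part in these differences was not tested. The call of Shmt2 was lost with the mean of all probe sets.

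The list of ATF4 targets also followed the Atf4 trio within groups. Of its 32 genes 20 had an r of deviations above 0.5 with Atf4, against 17.9% of all genes, and 20 with Trib3, against 21.4% of all genes. With Xbp1, 0 of the 32 had an r above 0.5 and 18 had one below -0.5, against 10.7% and 14.4% of all genes. Of the 23 ER chaperones 6 had an r above 0.5 and 2 one below -0.5 with Xbp1. With Atf4 4 had an r above 0.5 and 7 one below -0.5, against 17.9% and 11.6% of all genes, and with Hspa5 these counts were 5 and 2, against 2.03% and 4.11% of all genes. These counts were looked at after the values were seen and carry no test.

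Of 18 genes of ER-associated degradation 4 were higher and 2 lower in IDH2/NHD13 than in SCL/LMO1 leukemias, with a median of 0.19. The shares of all genes were 11.7% and 12.0%. The mannosidase-like gene Edem3 (0.93 ± 0.11, SE, limma adjusted p = 3.23e-05) and the ubiquitin-conjugating enzyme gene Ube2g2 (0.62 ± 0.09, 0.000156) were among those higher, and Edem1 (-1.99 ± 0.36, 0.000766) and Ube2j1 (-1.22 ± 0.32, 0.0104) were lower. Against WT 0 were higher and 2 lower in IDH2/NHD13 spleens, Edem1 (-1.72, limma adjusted p = 0.0157) and Derl3 (-0.50, 0.0109). In SCL/LMO1 thymi 0 were higher and 4 lower than in WT, Derl3 (-0.46, limma adjusted p = 0.0276), Edem3 (-0.50, 0.0404), Ube2g2 (-0.40, 0.041) and Derl2 (-0.55, 0.0424), and all 4 calls were lost with centred array medians. The call of Derl3 in IDH2/NHD13 against WT was lost with centred array medians and with quantile normalization. Derl3 is also on the plasma cell list.

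Of 12 eIF2alpha kinases, phosphatases and eIF2B subunits 2 were higher in IDH2/NHD13 than in SCL/LMO1 leukemias and 0 lower. Among all genes these shares were 11.7% and 12.0%. Eif2ak2, the double-stranded RNA sensor PKR, was higher by 1.11 ± 0.27 (SE, limma adjusted p = 0.00686) and Eif2ak1, the heme-regulated kinase HRI of erythroid cells, by 0.92 ± 0.28 (0.0274), a call lost with quantile normalization and with centred array medians. Eif2ak3 thus differed in direction from these related kinases. Against WT 3 were higher and 1 lower in IDH2/NHD13 spleens: Eif2ak1 by 1.49 (limma adjusted p = 0.0103), the eIF2B subunit gene Eif2b3 by 1.40 (0.0255) and the amino acid sensor GCN2 gene Eif2ak4 by 0.55 (0.0312) were higher, and the adaptor gene Nck1 was lower (-0.58, 0.0418), a call lost with centred array medians. Between SCL/LMO1 and WT limma called 0 of the 12, with 3 higher and 1 lower at an unadjusted p under 0.05.

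Of 20 measured genes of the translocon and secretory machinery 5 were higher and 1 lower between the leukemias, 3 and 1 in IDH2/NHD13 against WT and 0 and 1 in SCL/LMO1 against WT. Shares of all genes in these comparisons were 11.7% and 12.0%, 9.08% and 8.31%, and 5.04% and 6.52%. The coat protein gene Sec24d was higher in IDH2/NHD13 than in SCL/LMO1 leukemias by 1.63 ± 0.36 (SE, limma adjusted p = 0.0039) and lower in SCL/LMO1 than in WT thymi (-2.10 ± 0.48, 0.0102), while Arfgap3 and the cargo receptor gene Lman1 were higher in IDH2/NHD13 than in both other groups (1.20 and 0.56 against SCL/LMO1, limma adjusted p = 0.000714 and 0.000585, and 1.14 and 0.47 against WT, 0.00928 and 0.0153). Sec63, a partner of the translocon, was lower in IDH2/NHD13 spleens in both (-1.02 and -0.57, limma adjusted p = 2.99e-05 and 0.0202), and Spcs3, a signal peptidase subunit gene, was higher than in WT (0.64, limma adjusted p = 0.034). Against WT the call of Lman1 was lost with the mean of all probe sets, that of Spcs3 with centred array medians and that of Sec63 with either.

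Of 15 other ER stress transducers 2 were higher and 3 lower in IDH2/NHD13 than in SCL/LMO1 leukemias, and 1 was higher and 2 lower than in WT. The shares of all genes were 11.7% and 12.0% against SCL/LMO1 and 9.08% and 8.31% against WT. Mbtps1 and Mbtps2, the proteases that cut ATF6 in the Golgi, were lower than in SCL/LMO1 leukemias (-0.81 ± 0.12 and -0.46 ± 0.13, SE, limma adjusted p = 0.00016 and 0.0194), in the comparison in which Atf6 itself was higher. Traf2, which links IRE1 to JNK, was lower too (-0.76, limma adjusted p = 0.000187), as against WT (-0.67, 0.00521), where Rtcb, the ligase that joins spliced Xbp1 mRNA, was higher (0.41, 0.0225). Mbtps1 was also called lower against WT (-0.48, limma adjusted p = 0.0385), but with the mean of all probe sets its sign turned and the call was lost (0.15, limma adjusted p = 0.625). Against WT the calls of Traf2 with centred array medians and of Rtcb with the mean of all probe sets were lost as well. Creb3l1 and Creb3l3, relatives of ATF6 with levels below the median of all genes, were higher than in SCL/LMO1 by 0.59 and 0.28 (limma adjusted p = 0.00822 and 0.0426), the second a call lost with quantile normalization and with centred array medians. Between SCL/LMO1 and WT limma called 0 of the 15, with 3 higher and 1 lower at an unadjusted p under 0.05.

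Of 11 apoptosis genes downstream of ER stress 3 were higher and 1 lower in IDH2/NHD13 than in SCL/LMO1 leukemias, against 11.7% and 12.0% of all genes. The BH3-only gene Bbc3 (1.16 ± 0.22, SE, limma adjusted p = 0.00129) and the effector genes Bax (1.08 ± 0.24, 0.00398) and Bak1 (0.85 ± 0.20, 0.00579) were higher, and Trp53inp1 was lower (-1.58 ± 0.33, 0.00247). Against WT 2 were higher and 2 lower in IDH2/NHD13 spleens, Bax (1.13, limma adjusted p = 0.0188) and Bbc3 (0.97, 0.026) against Trp53inp1 (-1.67, 0.0124) and the ER caspase gene Casp12 (-1.76, 0.00148). Casp12 was also lower in SCL/LMO1 than in WT thymi (-2.03, limma adjusted p = 0.00112).

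**Figure D5:**
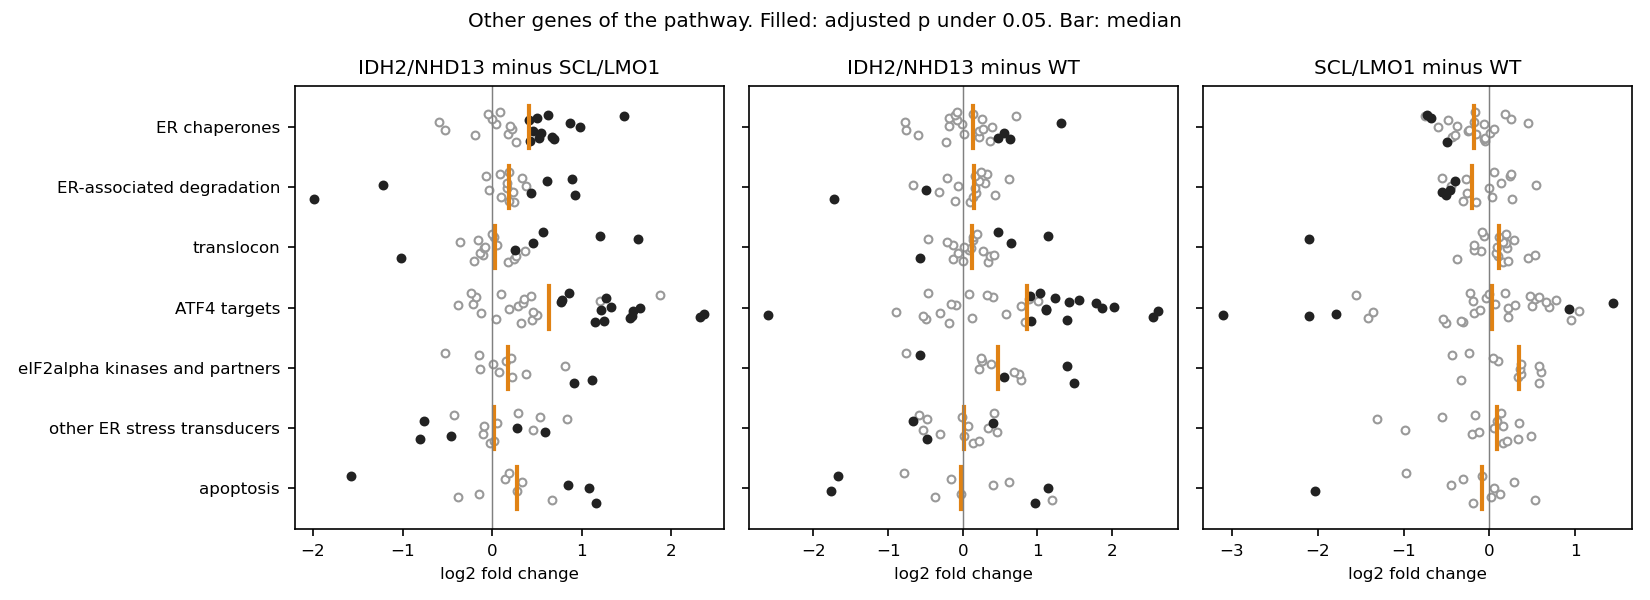
Log2 fold change (x axis) of each gene of the 7 pathway lists (y axis) for IDH2/NHD13 minus SCL/LMO1, IDH2/NHD13 minus WT and SCL/LMO1 minus WT; filled points have an adjusted p under 0.05 over all genes and the bar is the median of the list. The ATF4 target list has medians of 0.64 and 0.86 in both comparisons with IDH2/NHD13 and 0.03 between SCL/LMO1 and WT, and the ER chaperone list has medians of 0.41, 0.13 and -0.18.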

How the data were processed

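The values are log2 signals deposited by the authors. Background correction, summary and normalization are not given in the sources used here, and no probe set was filtered on a detection call, so a low value may be background. Per the labels' protocols, total RNA was extracted with TRIzol and biotin-labelled. Array medians lay between 6.10 and 6.28, and precision is limited by how many arrays there are. A further 36 columns that carry array numbers only were not used.

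Symbols come from the authors' deposited annotation, updated by Entrez identifier through RefSeq names of GRCm38.p6 (35121 matched, 1813 updated). All groups entered 1 limma 3.58.1 fit (R 4.3.3) over 20672 genes with 3 contrasts (lmFit, eBayes), with Benjamini-Hochberg adjustment over all genes. The fit was tested on simulated data. The members, gene lists and marker lists were chosen with earlier results of these data known. From each list the text names up to 4 called genes with the smallest adjusted p and up to 2 against the majority, and for each member up to 3 genes of highest r. Not every gene that this rule gives is reported here, though all counts include them. Sec61g and Srp54a of the secretory list were not measured here. Alternatives covered normalization, dim genes, probe sets, variance model, array weights, samples, threshold and each array left out.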

Additional observations from a re-analysis of the deposited data

Results flagged for a closer look

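Herpud1 in IDH2/NHD13 spleens had 1 sample far from the others. Mouse 555 stood at 11.41, a gap of 1.06 log2 units to the next sample, which is 0.625 of the range of the 8 samples and past the critical value of 0.526 of Dixon's test. It was the only one of 20 sets of values tested (10 genes in IDH2/NHD13 and SCL/LMO1 samples), and chance gives about 1 in 20. The same mouse had a kidney tubule list mean of 10.12, where the median of the IDH2/NHD13 group was 5.33. Its adipocyte list mean was 9.87, where that median was 6.04. The part that these tissues have in its Herpud1 level was not tested. Without mouse 555 Herpud1 was higher in IDH2/NHD13 than in SCL/LMO1 leukemias by 0.81 (limma adjusted p = 0.00187).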

How the results depend on the processing

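The count of unfolded protein response genes called between IDH2/NHD13 and SCL/LMO1 leukemias was 7 and stayed between 5 and 8 under 30 alternatives, while all genes called went to 2780 at an adjusted p under 0.01, beside 4902 at 0.05. Atf6, Ddit3, Eif2ak3, Herpud1 and Trib3 kept that call in 30 of 30 alternatives. The comparisons with 3 WT mice were less stable. For IDH2/NHD13 against WT the 3 called genes became 5 with array weights, 1 with only the 2 groups compared, 1 at an adjusted p under 0.01 and 0 to 6 when 1 array was left out, and the 3596 called among all genes became 6902, 1989, 1401 and 1382 to 5288. For SCL/LMO1 against WT the 2 called genes became 1 with centred array medians, 1 with mice 7114/1 and 7114/3 averaged, 0 at an adjusted p under 0.01, 0 without mice 555, 627 and 6889/1 and 0 to 2 when 1 array was left out, and the 2390 called among all genes became 4827 with array weights, 889 at an adjusted p under 0.01, 1060 without those 3 mice and 765 to 2989 when 1 array was left out. Of 4239 single values under alternatives 3746 kept direction and side of the threshold, 254 lost a call, 13 gained one, 211 moved without a test and 15 changed sign. The values that changed sign were, for SCL/LMO1 against WT, Hspa5 (0.12 with centred medians, -0.216 to 0.033 when 1 array was left out), Ern1 (0.033 with the mean of all probe sets), Eif2ak3 (-0.017 with quantile normalization, -0.025 with array weights, -0.12 without the 3 mice, -0.19 to 0.12 when 1 array was left out) and Trib3 (0.012, 0.049 and 0.061 with quantile normalization, centred medians and without the 3 mice, -0.295 to 0.046 when 1 array was left out), and, for IDH2/NHD13 against WT, Mbtps1 (0.15 with the mean of all probe sets). The cause was not tested. No paired analysis was possible because the groups share no mouse numbers. Signal over background was not given, so the low values of dim probe sets, Eif2ak3's others among them, limit what can be read from them.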
